A study of Mus musculus with 18 samples.

Results

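The 38 genes described here encode chaperones, components of the unfolded protein response (UPR) and components of the integrated stress response (ISR). They were taken by gene symbol: every row of the deposited tables whose Ensembl identifier carries 1 of the 38 listed symbols. All 38 were found among 30072 genes, and all 38 passed the filter on low counts that 15054 genes passed. By role they were 13 chaperones and folding factors of the endoplasmic reticulum (ER), 2 genes of ER-associated degradation (ERAD), 5 stress sensors (counting the transcription factor Xbp1, downstream of IRE1), 6 transcription factors and effectors of the ISR, 10 cytosolic heat shock genes and the 2 subunits of the mitochondrial chaperonin.

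RNA was sequenced from the interventricular septum of 18 CD-1 mice, with 6 mice per group. The labels give the CD-1 mice a mixed genetic background, and the study's methods describe them as a purchased outbred stock. Control mice received anesthesia without the treatment dose (per the study's methods they were sham controls that also had CT imaging), and the IR groups received a single dose of 25 Gy under isoflurane and were sampled 2 or 6 weeks later. All mice were adults of at least 8 weeks, both sexes were used in every group with matched littermates, and the sex and litter of single mice were not given. The labels give the single control group no sampling time. Age and time since anesthesia may therefore differ between the groups, and their part was not tested. Per the labels the tissue was septum and the radiation gamma, where the study's methods name ventricle and an X-ray source. Estimated counts summed to 11522987 to 15501019 per mouse, and 3 counts correspond to 0.194 to 0.26 CPM (counts scaled to a common library size, here without TMM factors), a floor that covers counting error only. All other CPM values carry TMM factors, which level composition differences between libraries, and different genes are compared only in TPM, which account for transcript length.

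The ER folds secreted and membrane proteins with the help of chaperones such as BiP (Hspa5), lectin chaperones and protein disulfide isomerases. When unfolded protein accumulates, the sensors IRE1 (Ern1), ATF6 and PERK (Eif2ak3) raise the capacity for folding and degradation and slow translation. PERK and GCN2 (Eif2ak4), a sensor of amino acid shortage, phosphorylate eIF2α, which favours translation of ATF4 and the induction of genes of amino acid supply, of CHOP (Ddit3) and of the phosphatase subunit GADD34 (Ppp1r15a). Heat shock proteins serve folding in the cytosol under the factor HSF1, and in cardiomyocytes they also protect the contractile apparatus. Hspd1 and Hspe1 form the chaperonin of the mitochondrial matrix.

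Promoter windows (250 bases before to 50 after the start of transcription, RefSeq on GRCm38.p6) were matched for 33 of the 38 genes and were searched on both strands. The ER stress element (CCAAT, 9 free bases, CCACG), the site through which ATF6 and XBP1 act on chaperone genes, was found in 7 of these genes and in 0.137% of all 27025 genes with a window. The 7 were Hspa5, Hsp90b1, Calr, Canx, Pdia6, Dnajc3 and Creld2, all of the ER chaperone group. The ER stress element II (ATTGG, 1 free base, CCACG) was found in Herpud1 and in 0.0444% of all genes. The amino acid response element TTGCATCA was found in Chac1 and Herpud1 and in 1.03% of all genes. A heat shock element (3 alternating GAA and TTC blocks, each 2 free bases apart) was found in the window that Hspd1 and Hspe1 share, in Hsph1 and in 0.662% of all genes. The UPR element TGACGTGG was found in none of the 33 and in 0.714% of all genes. A match is a description of letters in these windows and was not tested for binding.

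The stretches below show these elements, with the motif letters in capitals and the sequence 5′ to 3′ in the direction of the gene. They are given for BiP, for the gene with a pair of ER stress elements, for both ER genes with an element whose change passed the test at 6 weeks, and for the ERAD, ISR and chaperonin genes with an element.
Hspa5 (chr2:34772010-34772058, plus strand): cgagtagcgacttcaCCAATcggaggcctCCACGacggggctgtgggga
Hsp90b1, distal (chr10:86705623-86705671, minus strand): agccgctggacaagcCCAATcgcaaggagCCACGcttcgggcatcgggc
Hsp90b1, proximal (chr10:86705518-86705566, minus strand): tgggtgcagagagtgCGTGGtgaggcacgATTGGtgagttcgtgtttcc
Pdia6 (chr12:17266476-17266524, plus strand): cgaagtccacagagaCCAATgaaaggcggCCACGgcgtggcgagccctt
Creld2 (chr15:88819505-88819553, plus strand): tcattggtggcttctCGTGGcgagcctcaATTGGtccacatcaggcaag
Herpud1, ER stress element II (chr8:94386362-94386402, plus strand): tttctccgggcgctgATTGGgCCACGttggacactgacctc
Herpud1, amino acid response element (chr8:94386302-94386339, plus strand): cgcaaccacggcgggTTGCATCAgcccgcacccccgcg
Chac1, amino acid response element (chr2:119351034-119351071, plus strand): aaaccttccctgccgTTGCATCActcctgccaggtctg
Hspe1 and Hspd1, heat shock element (chr1:55088044-55088091, plus strand): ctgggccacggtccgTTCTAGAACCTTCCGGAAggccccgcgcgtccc
In the proximal Hsp90b1 stretch and in Creld2 the element reads on the opposite strand, so that its reverse complement is capitalised. The heat shock stretch is given in the direction of Hspe1. There the capitals cover the whole span of overlapping matches, free bases included.

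Per length, the cytosolic chaperone Hspa8 (Hsc70) was the most abundant of the 38 in control mice, with 418 to 469 TPM and a median of 429. It was followed by the small heat shock protein Hspb1 with a median of 279 TPM, by the co-chaperone Bag3 with 139 TPM and by Hspa5 with 134 TPM. The ranges of Bag3 (122 to 149 TPM) and Hspa5 (114 to 153 TPM) overlapped, whereas those of Hspa8, Hspb1 and Bag3 did not. At the other end, Chac1 had a median of 1.13 TPM, Trib3 of 0.882 TPM and Asns of 0.835 TPM, and their ranges overlapped.

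Genes of these pathways were compared with controls at each time to ask which arms of the stress response differed after IR, and called genes are those with an adjusted p under 0.05 in edgeR's quasi-likelihood test, adjusted over all 15054 genes. At 2 weeks post-IR, 7 of the 38 were called (18.4%), beside 5.02% of all genes tested. Of these, 4 were higher (Sdf2l1, Pdia3, Hyou1 and Eif2ak4), beside 3.09% of all genes called higher, and 3 were lower (Hspe1, Dnajb9 and Ern1), beside 1.93% called lower. At 6 weeks post-IR, 15 of the 38 were called (39.5%), beside 25.0% of all genes. Then 12 were higher, beside 13.5% of all genes, and 3 were lower (Dnajb9, Hspa4l and Hspd1), beside 11.5%. The median log2 fold change of the 38 was 0.10 at 2 weeks and 0.27 at 6 weeks, where the median over all genes tested was -0.00 and -0.02. The direction of the calls depended on the scaling. With library size alone, 12 of the 38 were called at 2 weeks (11 higher, 1 lower) and 25 at 6 weeks, all higher. Under that scaling 1789 of all 15054 genes were called at 2 weeks, 1707 of them higher and 82 lower. At 6 weeks 5820 were called, 5494 of them higher and 326 lower. Of the 10 genes among the 38 with a negative log2 fold change at 6 weeks, 6 turned positive under that scaling. On the TPM scale 9 turned positive, all but Hspe1, and the median of all genes at 6 weeks was 0.29 with log2(TPM + 1).

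Most of these changes were small. An absolute log2 fold change above 1 was reached by Hspe1 alone at 2 weeks, beside 0.903% of all genes past both limits, and by Asns alone at 6 weeks, beside 5.95%. At 2 weeks the 6 IR mice lay outside the range of the 6 controls for 1 of the 38 genes, Hspe1, beside 3.24% of all genes. At 6 weeks this held for 4 genes, Pdia3, Sdf2l1, Eif2ak4 and Asns, beside 9.23%. The calls at 2 weeks depended on single mice: of the 7 genes, 2 were called without control mouse 5 and 2 without the 2-week mouse 3. Without control mouse 3, or the 2-week mouse 1 or 5, 3 were called, and without the 2-week mouse 2, 4 were. Calls over all genes fell as well, from 755 to 519 without control mouse 5 and to 512 without the 2-week mouse 3. They numbered 453 without control mouse 3, and 507, 466 and 594 without the 2-week mouse 1, 5 and 2. Hspe1 and Dnajb9 remained called whichever of the 12 mice was left out, although Dnajb9 was not called at 2 weeks with library size alone or on the TPM scale. At 6 weeks, leaving out 1 mouse gave between 11 and 17 called genes of the 38, beside 3089 to 3927 of all genes.

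**Figure D1:**
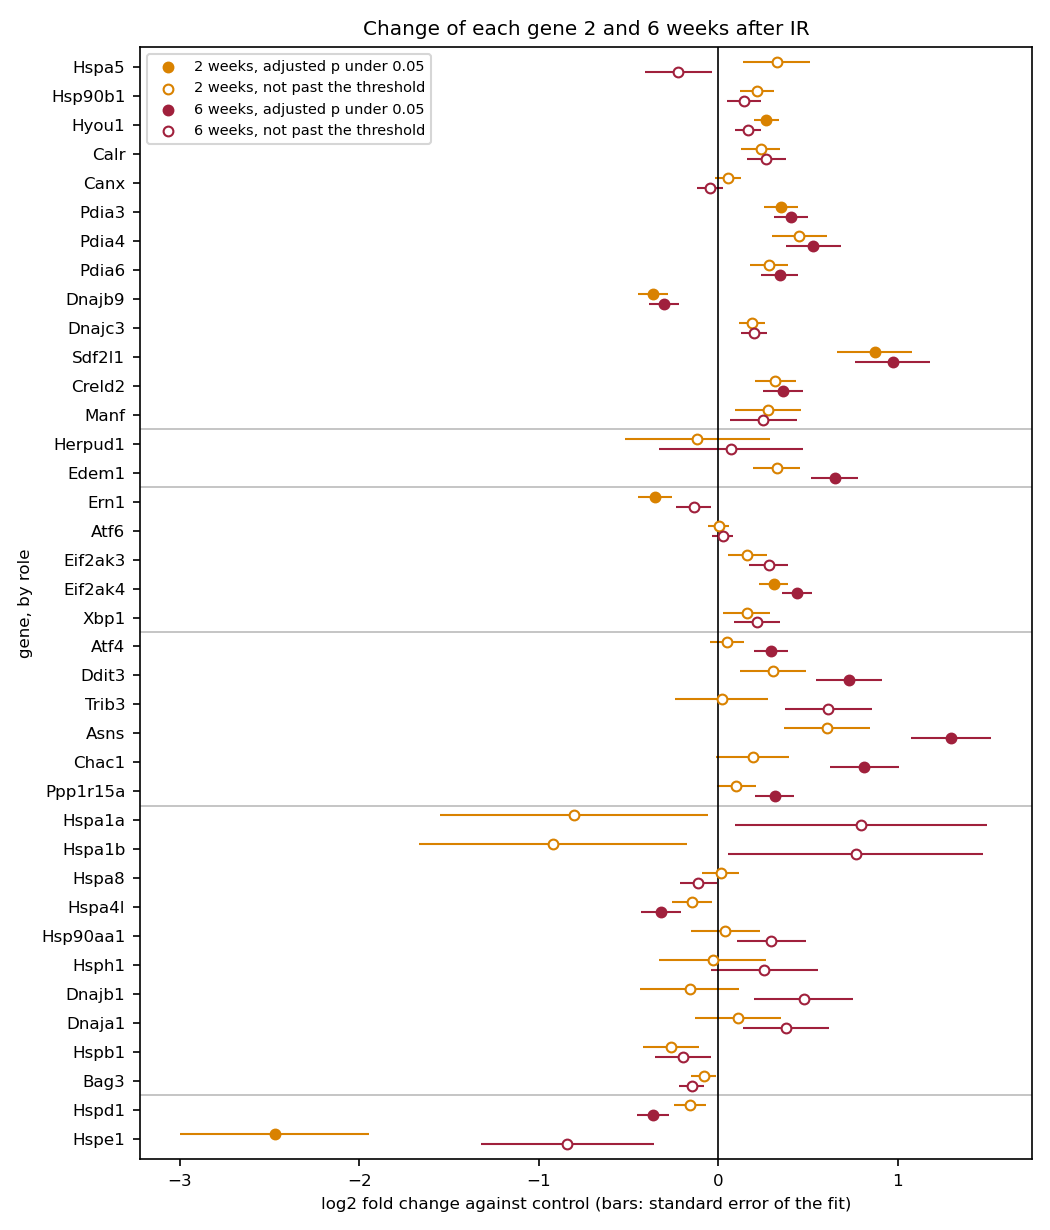
Log2 fold change of each of the 38 genes against control (x axis) at 2 weeks (orange) and 6 weeks post-IR (red), with the standard error of the fit as a bar and genes grouped by role from ER chaperones at the top to the mitochondrial chaperonin at the bottom. Filled points passed an adjusted p under 0.05 (7 genes at 2 weeks, 15 at 6 weeks); the ISR genes shift to the right between the times, and Hspe1 at 2 weeks lies farthest from 0.

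The ER chaperone group was mostly a little higher after IR. At 2 weeks 12 of its 13 genes had a positive log2 fold change. Of the 13, 3 were called higher and 1 lower, beside 3.09% and 1.93% of all genes. At 6 weeks 10 were positive, with 5 called higher and 1 lower, beside 13.5% and 11.5% of all genes. The median log2 fold change of the group was 0.28 at 2 weeks and 0.25 at 6 weeks. Fold change was not shared evenly: the abundant chaperones Hspa5, Hsp90b1, Calr and Canx passed edgeR's test with TMM at neither time, and Sdf2l1 changed most.

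Sdf2l1 (chromosome 16, 17130138 to 17132383), an ER protein that joins BiP in chaperone complexes, ranged from 2.49 to 4.3 CPM in controls with a median of 3.46. At 2 weeks it ranged from 3.47 to 8.83 CPM with a median of 6.27, and at 6 weeks from 4.97 to 8.67 CPM with a median of 7.02. All but 1 of the 2-week mice (mouse 4) and all 6-week mice exceeded every control. The gene rose 1.83-fold at 2 weeks (adjusted p = 0.0227, log2 fold change 0.87 ± 0.21 SE) and 1.96-fold at 6 weeks (adjusted p = 0.00222, log2 fold change 0.97 ± 0.21 SE). The 2-week call was lost without control mouse 5 or 6 or without the 2-week mouse 3 or 5, with an adjusted p of at most 0.0575.

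All 3 protein disulfide isomerases among the 38, enzymes that form and rearrange disulfide bonds, were called higher at 6 weeks. Their relatives P4hb, Pdia5, Txndc5, Erp29 and Erp44, counted in a further list below, were not called then by edgeR. Pdia3, which works with calnexin and calreticulin on glycoproteins, ranged from 58.0 to 71.8 CPM in controls (median 66.0), from 65.5 to 97.3 CPM at 2 weeks (median 81.6) and from 75.9 to 94.3 CPM at 6 weeks (median 87.8). The 6-week mice were all above the controls, and 5 of 6 were at 2 weeks. Pdia3 rose 1.27-fold at 2 weeks (adjusted p = 0.0364, log2 fold change 0.35 ± 0.09 SE) and 1.32-fold at 6 weeks (adjusted p = 0.00353, log2 fold change 0.41 ± 0.09 SE). Pdia4 had medians of 19.1, 25.1 and 26.1 CPM in control, 2-week and 6-week mice, and rose 1.44-fold at 6 weeks (adjusted p = 0.016, log2 fold change 0.53 ± 0.15 SE), where 4 of 6 mice exceeded all controls. At 2 weeks its log2 fold change of 0.45 ± 0.15 SE had an adjusted p of 0.0957. Pdia6 rose 1.27-fold at 6 weeks (adjusted p = 0.0221, log2 fold change 0.34 ± 0.10 SE), from a median of 30.5 CPM to 37.9 CPM. Its call was lost without control mouse 5 or the 6-week mouse 3, with an adjusted p of at most 0.0567, and the Pdia3 call at 2 weeks was lost on leaving out control mouse 2, 3 or 5 or the 2-week mouse 1, 3 or 5 (adjusted p at most 0.0833).

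Creld2, an ER protein induced by the UPR, had medians of 5.5, 7.23 and 7.34 CPM in control, 2-week and 6-week mice and rose 1.28-fold at 6 weeks (adjusted p = 0.0255, log2 fold change 0.36 ± 0.11 SE). That call was lost without control mouse 2 or the 6-week mouse 1 or 3 (adjusted p at most 0.0617). Hyou1, a large ER chaperone that exchanges nucleotide on BiP, ranged from 48.0 to 61.9 CPM in controls (median 59.0) and from 58.5 to 77.5 CPM at 2 weeks (median 69.5). It rose 1.2-fold at 2 weeks (adjusted p = 0.0369, log2 fold change 0.27 ± 0.07 SE), a call kept only when the mouse left out was control mouse 1 or 6 or the 2-week mouse 4 (adjusted p at most 0.0852). At 6 weeks its median was 65.3 CPM and the adjusted p was 0.101.

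Dnajb9 (ERdj4), a co-chaperone that brings BiP to IRE1 and holds it inactive, went the other way. It ranged from 29.2 to 37.1 CPM in controls (median 33.6), from 23.2 to 29.8 CPM at 2 weeks (median 25.3) and from 22.9 to 30.4 CPM at 6 weeks (median 27.8). At each time 5 of 6 IR mice lay below every control. Dnajb9 fell by 0.36 on the log2 scale at 2 weeks (adjusted p = 0.0171, SE 0.08) and by 0.30 at 6 weeks (adjusted p = 0.0114, SE 0.08). On the log2(TPM + 1) scale the 2-week difference was -0.08 (adjusted p = 0.536) and the 6-week difference turned to 0.14 (adjusted p = 0.178), and with library size alone the 2-week difference was -0.21 (adjusted p = 0.105).

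Hspa5 (BiP; chromosome 2, 34771970 to 34777547), the central chaperone of the ER, gave different answers on different scales. It ranged from 152 to 352 CPM in controls (median 272), from 243 to 429.6 CPM at 2 weeks (median 351) and from 162 to 284 CPM at 6 weeks (median 228). The log2 fold change was 0.32 ± 0.19 SE at 2 weeks (adjusted p = 0.349) and -0.22 ± 0.19 SE at 6 weeks (adjusted p = 0.425), so neither passed. In TPM the same mice gave medians of 134, 197 and 169, and at 6 weeks the log2(TPM + 1) difference was 0.39 ± 0.11 SE with an adjusted p of 0.00829. The count per TPM, which follows the mean length of the transcripts assigned to a gene, varied 1.78-fold between mice for Hspa5 and at most 1.47-fold for the other ER chaperones. With counts rebuilt to 1 length per gene, the 6-week log2 fold change of Hspa5 was -0.02 ± 0.11 SE (adjusted p = 0.922).

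Of the remaining ER chaperones none passed edgeR's test with TMM. Hsp90b1 (GRP94) had medians of 214, 256 and 241 CPM and log2 fold changes of 0.22 ± 0.09 SE and 0.14 ± 0.09 SE at 2 and 6 weeks (adjusted p = 0.205 and 0.305). Calr had log2 fold changes of 0.24 ± 0.11 SE and 0.27 ± 0.11 SE (adjusted p = 0.224 and 0.0801), and 4 of 6 mice exceeded all controls at each time. Canx had 0.05 ± 0.07 SE and -0.05 ± 0.07 SE, where the sign at 6 weeks turned when scaled to library size. Dnajc3, a co-chaperone of BiP, had 0.19 ± 0.07 SE and 0.20 ± 0.07 SE, with 5 of 6 IR mice above all controls at each time and adjusted p of 0.141 and 0.0515. Manf, a secreted neurotrophic factor of the UPR, had 0.28 ± 0.19 SE and 0.25 ± 0.19 SE (adjusted p = 0.428 and 0.361). Other settings called some of these genes. DESeq2 called Dnajc3 higher at 6 weeks (adjusted p = 0.0361). With library size alone, Hsp90b1, Calr and Dnajc3 were called higher at 2 weeks, beside 1707 of all 15054 genes. At 6 weeks these, Canx and Manf were called higher on that scale, beside 5494 of all genes.

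Of the ERAD genes, Edem1 rose at 6 weeks and Herpud1 varied between mice. Edem1 (chromosome 6, 108828641 to 108859356), which draws misfolded glycoproteins out of the folding cycle, ranged from 16.9 to 30.4 CPM in controls (median 19.99), from 23.4 to 31.6 CPM at 2 weeks (median 26.7) and from 27.2 to 42.4 CPM at 6 weeks (median 32.3). Control mouse 4 had 30.4 CPM, where the other controls had 16.9 to 22.9 CPM. Edem1 rose 1.57-fold at 6 weeks (adjusted p = 0.00127, log2 fold change 0.65 ± 0.13 SE), and at 2 weeks the log2 fold change was 0.33 ± 0.13 SE (adjusted p = 0.161). Herpud1, a scaffold of the degradation complex, ranged from 41.1 to 218 CPM in controls, from 78.3 to 177 CPM at 2 weeks and from 30.7 to 179 CPM at 6 weeks. All 3 groups overlapped, and the log2 fold changes were -0.12 ± 0.40 SE and 0.07 ± 0.40 SE.

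Of the sensors, Eif2ak4 and Ern1 changed. Eif2ak4 (GCN2; chromosome 2, 118388618 to 118475234) ranged from 8.26 to 9.67 CPM in controls (median 8.57), from 9.55 to 11.9 CPM at 2 weeks (median 11.1) and from 10.7 to 13.4 CPM at 6 weeks (median 11.8). All 6-week mice were above all controls, and 5 of 6 were at 2 weeks. It rose 1.24-fold at 2 weeks (adjusted p = 0.0358, log2 fold change 0.31 ± 0.08 SE) and 1.36-fold at 6 weeks (adjusted p = 0.000661, log2 fold change 0.44 ± 0.08 SE). Ern1 (IRE1) ranged from 35.4 to 43.5 CPM in controls (median 41.3) and from 26.1 to 36.0 CPM at 2 weeks (median 31.1), where 5 of 6 mice lay below all controls. It fell by 0.35 on the log2 scale at 2 weeks (adjusted p = 0.0393, SE 0.10), and at 6 weeks, with a median of 34.9 CPM, the difference of -0.14 ± 0.10 SE had an adjusted p of 0.323. Each 2-week call was lost when most single mice were left out: that of Eif2ak4 was kept only without control mouse 2 or the 2-week mouse 5 or 6, and that of Ern1 only without control mouse 2 or 6 or the 2-week mouse 4 (adjusted p at most 0.0785 and 0.0863). The Ern1 call was also lost with library size alone (adjusted p = 0.193), on the TPM scales (0.290 with log2(TPM + 1)), with no filter on low counts and with length-scaled counts. The Eif2ak4 call was also lost with limma voom, no filter, only the groups compared, the replicate block and length-scaled counts, with an adjusted p of at most 0.0567.

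PERK (Eif2ak3) had medians of 13.7, 15.6 and 17.3 CPM and a log2 fold change of 0.28 ± 0.11 SE at 6 weeks (adjusted p = 0.0645). Xbp1, the transcription factor whose messenger IRE1 splices, had medians of 40.01, 40.9 and 42.7 CPM, and its splicing cannot be read from gene totals. Atf6 was nearly constant, with 53.9 to 65.0 CPM over all 18 mice and log2 fold changes of 0.00 ± 0.06 SE and 0.02 ± 0.06 SE. Its spread within groups was at the 2.95th percentile of all genes tested.

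Of the ISR group, 5 of 6 genes were called higher at 6 weeks (13.5% of all genes were), none lower, and all 6 log2 fold changes were positive with a median of 0.67. At 2 weeks all 6 were positive with a median of 0.15, and none was called by edgeR (1 had an unadjusted p under 0.05, and DESeq2 called none). In contrast, limma on log2(TPM + 1) called 3 higher at 2 weeks, Asns, Atf4 and Ddit3, beside 2774 of all 15054 genes. Asns (asparagine synthetase, which supplies asparagine; chromosome 6, 7675169 to 7693254) ranged from 0.74 to 2.22 CPM in controls (median 1.47), from 1.88 to 3.12 CPM at 2 weeks (median 2.16) and from 2.33 to 4.82 CPM at 6 weeks (median 3.49). The 6-week mice were all above the controls, while at 2 weeks 2 of 6 were. It rose 2.46-fold at 6 weeks (adjusted p = 0.000343, log2 fold change 1.30 ± 0.22 SE), and at 2 weeks the log2 fold change was 0.61 ± 0.24 SE (adjusted p = 0.151). The counts behind these values were low, 8 to 32 per control mouse and 29 to 77 per 6-week mouse.

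Chac1 (chromosome 2, 119351229 to 119354381), which degrades glutathione, ranged from 1.2 to 2.27 CPM in controls (median 1.68), from 1.69 to 2.57 CPM at 2 weeks (median 1.82) and from 2.01 to 3.79 CPM at 6 weeks (median 3.16). Only mouse 5 of the 6-week group lay within the control range. Chac1 rose 1.76-fold at 6 weeks (adjusted p = 0.00419, log2 fold change 0.81 ± 0.19 SE). Ddit3 (CHOP, a transcription factor tied to apoptosis under prolonged stress; chromosome 10, 127290774 to 127296288) ranged from 10.3 to 20.8 CPM in controls (median 14.3), from 16.5 to 20.9 CPM at 2 weeks (median 18.8) and from 16.7 to 38.1 CPM at 6 weeks (median 24.2). The highest value belonged to the 6-week mouse 3, and 6-week mice 2 and 5 lay within the control range. Ddit3 rose 1.66-fold at 6 weeks (adjusted p = 0.00663, log2 fold change 0.73 ± 0.18 SE), and its gene overlaps Mars on the opposite strand.

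Atf4, the factor that drives the programme, ranged from 26.8 to 36.6 CPM in controls (median 34.3), from 29.8 to 38.04 CPM at 2 weeks (median 33.9) and from 32.6 to 48.0 CPM at 6 weeks (median 40.4). It rose 1.22-fold at 6 weeks (adjusted p = 0.0289, log2 fold change 0.29 ± 0.09 SE), a call lost without control mouse 1 or 4 or the 6-week mouse 3, 5 or 6 (adjusted p at most 0.0724). Ppp1r15a, which directs a phosphatase to eIF2α, had medians of 22.3, 24.4 and 27.1 CPM and rose 1.24-fold at 6 weeks (adjusted p = 0.0443, log2 fold change 0.31 ± 0.11 SE). Its call was kept only without control mouse 3 or the 6-week mouse 3, 4 or 6 (adjusted p at most 0.105), and with counts rebuilt to 1 length per gene the log2 fold change was 0.14 ± 0.18 SE (adjusted p = 0.62). Trib3, a pseudokinase that restrains the same programme, was the 1 gene of the group that did not pass, with medians of 1.93, 2.34 and 3.74 CPM and a log2 fold change of 0.61 ± 0.24 SE at 6 weeks (adjusted p = 0.0728). Control mouse 1 had 4.23 CPM of Trib3, more than 4 of the 6-week mice.

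**Figure D2:**
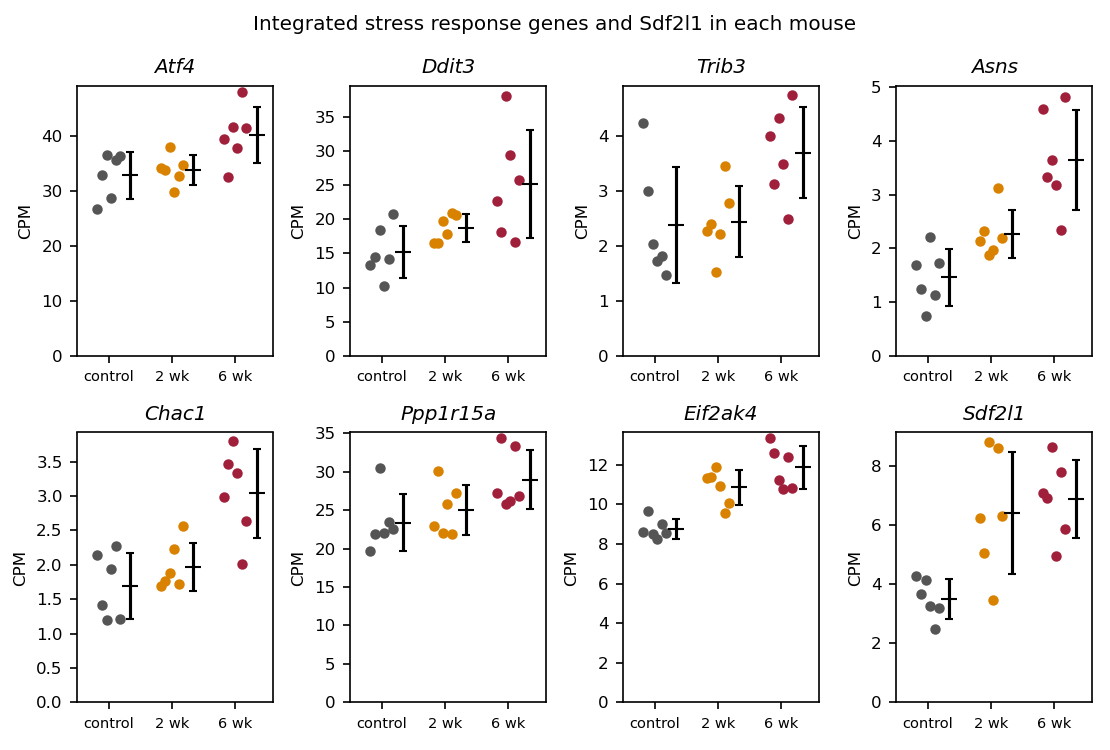
CPM in each mouse (points, 6 per group, in order of replicate number) for the 6 ISR genes, Eif2ak4 and Sdf2l1, with the group mean and SD (bars); axes start at 0. Asns, Eif2ak4 and Sdf2l1 show no overlap between control and 6-week mice, while Atf4, Ddit3, Trib3, Chac1 and Ppp1r15a do.

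Most of the cytosolic heat shock genes differed between mice more than between groups. For Hspa4l and Bag3 the 6-week log2 change was larger than the spread within groups (SD 0.20 and 0.12). None of the 10 was called at 2 weeks by edgeR (none had an unadjusted p under 0.05, and DESeq2 called none), beside 5.02% of all genes. At 6 weeks 1 was called, lower, beside 11.5% of all genes called lower. With library size alone, Hsp90aa1, Dnaja1 and Dnajb1 were called higher at 6 weeks, beside 5494 of all 15054 genes. The inducible Hsp70 genes Hspa1a and Hspa1b (chromosome 17, 34969190 to 34972156 and 34956436 to 34959238) spanned 1.3 to 39.7 and 3.52 to 65.7 CPM among controls, with medians of 7.09 and 8.87. At 2 weeks they spanned 1.96 to 12.5 and 3.86 to 17.2 CPM. At 6 weeks they spanned 2.27 to 59.0 and 4.93 to 87.1 CPM, with medians of 14.7 and 22.7. Their log2 fold changes at 6 weeks, 0.80 ± 0.70 SE and 0.76 ± 0.71 SE, were near their standard errors. Their spread within groups lay at the 99.5th percentile of all genes tested for both. These neighbours share 70.1% and 68.1% of their 31-base words with other genes, mostly with each other, so the split of reads between them is uncertain and the values of each are best read together.

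The same mice were high across the group. Control mouse 5 was the highest control for 9 of the 10 genes and the 6-week mouse 5 the highest of its group for all 10. Control mouse 1 was the lowest control for 9, and the 2-week mouse 4 the lowest of its group for 8. Hsph1 (Hsp110), a nucleotide exchange factor, reached 89.9 CPM in control mouse 5, where the other controls had 30.5 to 49.9, and 103 CPM in the 6-week mouse 5. Dnaja1, a co-chaperone of Hsp70, reached 115 CPM in control mouse 5 and 156 CPM in the 6-week mouse 5, against group medians of 66.8 and 88.7 CPM. Dnajb1 (Hsp40) spanned 14.2 to 35.9, 13.1 to 26.9 and 15.04 to 56.0 CPM in control, 2-week and 6-week mice, and Hsp90aa1 spanned 99.7 to 215, 106 to 180.2 and 124 to 269 CPM. Summed immediate early genes, which respond within minutes to handling and tissue stress, were at 466 TPM in the 6-week mouse 5, the highest of its group (238 to 466), but at 146 TPM in control mouse 5, the second lowest of its group (138 to 261).

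**Figure D3:**
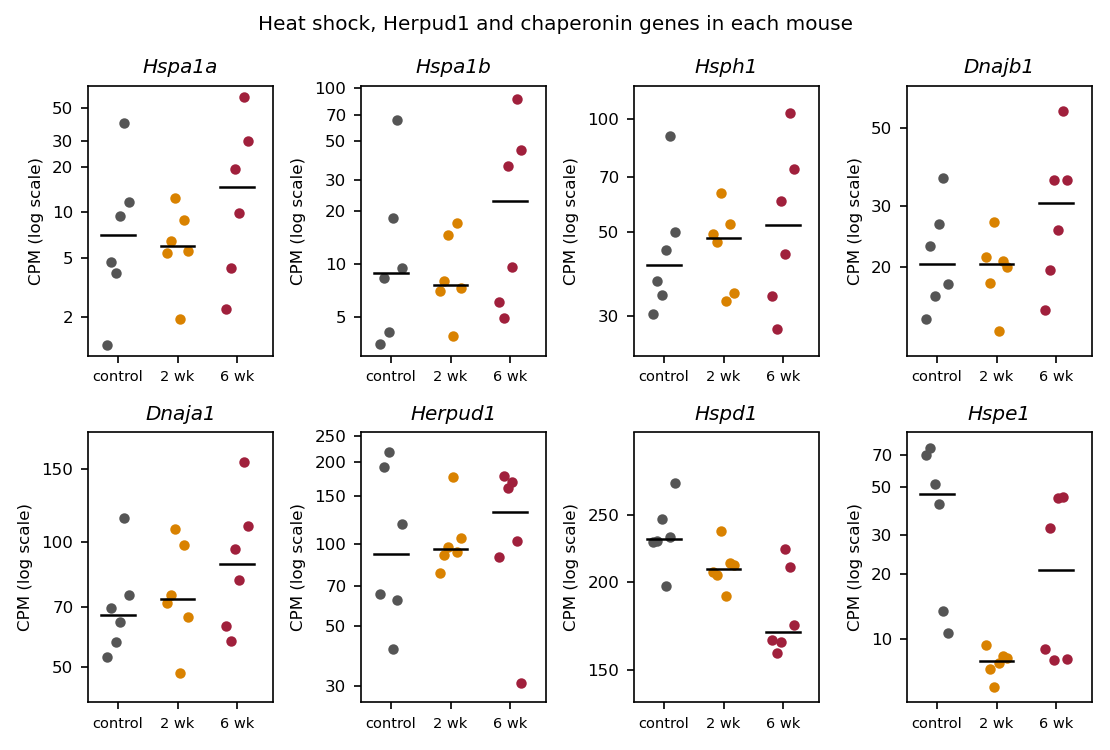
CPM on a log axis in each mouse (points, in order of replicate number; line: group median) for 5 heat shock genes, Herpud1 and the mitochondrial chaperonin genes. Control mouse 5 and the 6-week mouse 5 are the high points of the heat shock panels, Herpud1 spans 41.1 to 218 CPM among controls, and Hspe1 lies between 6.05 and 9.47 CPM in all 2-week mice.

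Hspa4l, a relative of Hsp110, was the gene called lower at 6 weeks, with medians of 79.3, 68.9 and 62.5 CPM. It fell by 0.32 on the log2 scale (adjusted p = 0.0406, SE 0.11), but on the TPM scale the difference was 0.13 (adjusted p = 0.307), and the call was kept only without control mouse 1 or the 6-week mouse 4 or 5 (adjusted p at most 0.0994). The constitutively expressed genes varied less between mice. Hspa8 had log2 fold changes of 0.01 ± 0.11 SE and -0.11 ± 0.11 SE, Hspb1 of -0.26 ± 0.16 SE and -0.20 ± 0.16 SE, and Bag3, which sends damaged muscle proteins to autophagy, of -0.08 ± 0.07 SE and -0.15 ± 0.07 SE (adjusted p = 0.54 and 0.132). The negative 6-week values of Hspa8, Hspb1 and Bag3 turned positive on the TPM scale and when scaled to library size. Between 44.8% and 55.4% of the 31-base words of Hspa8, Hsp90aa1, Hspb1 and Hspd1 occur in other genes, mostly processed copies, and the estimates for these genes are uncertain to that extent.

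Hspe1 (Hsp10, the lid of the chaperonin; chromosome 1, 55088132 to 55091307) had the largest difference among the 38. In controls it was 69.8, 75.1, 51.4, 41.6, 13.5 and 10.7 CPM in mice 1 to 6. At 2 weeks all 6 mice had between 6.05 and 9.47 CPM, and at 6 weeks the values were 9.01, 32.5, 8.05, 44.3, 44.9 and 8.13 CPM. Control mice 1 to 4 (41.6 to 75.1 CPM) and 6-week mice 2, 4 and 5 (32.5 to 44.9 CPM) stood above the rest of their groups, while no 2-week mouse was high. Hspe1 fell by 2.47 on the log2 scale at 2 weeks (adjusted p = 0.0116, SE 0.52), and at 6 weeks the log2 fold change was -0.84 ± 0.48 SE (adjusted p = 0.225). The spread within groups was at the 98.8th percentile of all genes tested, and 30.5% of its 31-base words occur in other genes. What set the high mice apart was not tested.

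Its partner Hspd1 (Hsp60; chromosome 1, 55077835 to 55088243), which starts from the same region on the opposite strand, did not follow it. Hspd1 ranged from 198 to 277 CPM in controls (median 231), from 191 to 237 CPM at 2 weeks (median 209) and from 159 to 223 CPM at 6 weeks (median 169.8), with 4 of 6 mice below all controls at 6 weeks. It fell by 0.36 on the log2 scale at 6 weeks (adjusted p = 0.00615, SE 0.09), although on the TPM scale the 6-week difference was 0.045 (adjusted p = 0.631). At 2 weeks the difference was -0.16 ± 0.09 SE (adjusted p = 0.345).

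**Figure D4:**
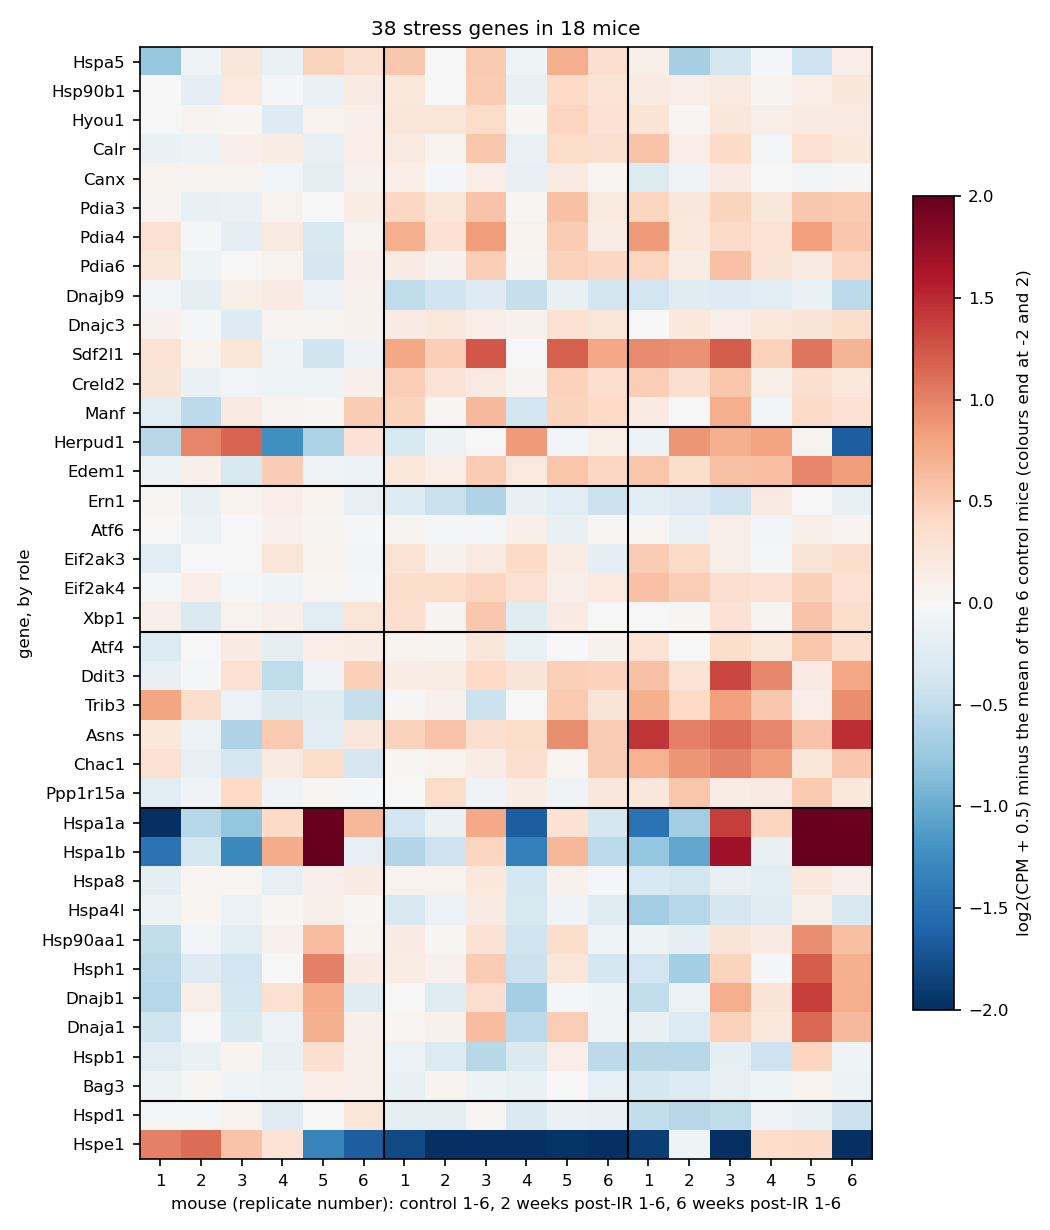
Heat map of log2(CPM + 0.5) minus the mean of the 6 controls for the 38 genes (rows, by role) in the 18 mice (columns: control, 2 weeks and 6 weeks, mice 1 to 6 each), with colours ending at -2 and 2. Asns and Ddit3 are mostly red at 6 weeks, Dnajb9 is blue in all irradiated mice, and Hspa1a, Hspa1b, Herpud1 and Hspe1 vary from mouse to mouse within groups.

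Between 2 and 6 weeks, none of the 38 genes was called by edgeR, beside 5.33% of all genes. An unadjusted p under 0.05 was reached by 13 of them, 11 higher at 6 weeks, which compares with 21.3% of all genes. DESeq2 called 3 of the 38 (Asns, Chac1 and Hspe1, all higher at 6 weeks), beside 1164 of all 15054 genes. With limma voom 2 were called (Asns and Chac1), beside 1196 of all genes. In edgeR, the log2 difference between the times was 0.69 ± 0.20 SE for Asns (adjusted p = 0.0549), 0.62 ± 0.18 SE for Chac1 (adjusted p = 0.0556) and 1.63 ± 0.52 SE for Hspe1 (adjusted p = 0.0754). All 6 ISR genes and all 5 sensor genes had a positive difference. The larger ISR values at 6 weeks were therefore not separated from those at 2 weeks by the main test.

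Within groups, single mice moved across many of the genes at once. The 2-week mouse 4 was the lowest of its group for 12 of the 13 ER chaperones, and mice 3 and 5 were the highest for 6 each. Without mouse 4, 6 of the 38 genes were called at 2 weeks, and without mouse 3, 2 were, beside 744 and 512 of all genes. At 6 weeks no mouse was the lowest or the highest for more than 5 of the 13.

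Further genes of the same pathways were counted from lists outside the 38. Of 29 other ER folding and ERAD genes, none was called at 2 weeks by edgeR (3 had an unadjusted p under 0.05, and DESeq2 called none) and 2 at 6 weeks, the prolyl isomerase Ppib (36.1 ± 5.98 CPM in controls, 43.7 ± 1.78 CPM at 6 weeks; SD, n = 6) and Edem2 (6.84 ± 0.759 and 8.85 ± 1.33 CPM), both higher. The median log2 fold change of this list was 0.06 at 2 weeks and 0.09 at 6 weeks. The 6-week calls were 6.9% of the list, beside 25.0% of all genes, and the 2-week share of 0 stood beside 5.02%. Scaled to library size, 20 of the 29 were called higher at 6 weeks, beside 5494 of all 15054 genes.

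Of 26 tested genes of the wider ISR and ATF4 list, 12 were called at 6 weeks, 10 higher and 2 lower, and 7 of them passed an absolute log2 fold change of 1. These are 46.2% of the list called, beside 25.0% of all genes, with 13.5% of all genes called higher, 11.5% lower and 5.95% past both limits. The 3 with the smallest adjusted p were Sesn2, Gdf15 and Atf5. Sesn2, a stress sensor that restrains mTORC1 and is also induced by p53, went from 5.0 ± 1.42 CPM in controls to 18.9 ± 1.5 CPM at 2 weeks and 17.98 ± 1.48 CPM at 6 weeks (SD, n = 6), and was the 1 gene of the list called at 2 weeks (log2 fold change 1.90 ± 0.13 SE). Gdf15, a circulating stress hormone, went from 2.86 ± 0.981 CPM in controls to 5.27 ± 2.22 CPM at 2 weeks and 16.2 ± 7.41 CPM at 6 weeks. Atf5, a relative of ATF4 with mitochondrial targets, went from 61.5 ± 3.31 to 66.7 ± 2.9 and 80.5 ± 5.68 CPM. Between the times 4 genes of the list were called, all higher at 6 weeks: Gdf15 (log2 difference 1.62 ± 0.29 SE), Atf5 (0.27 ± 0.05 SE), Mthfd2, a mitochondrial folate enzyme (1.09 ± 0.26 SE), and Slc3a2, the heavy chain of amino acid transporters (0.28 ± 0.08 SE, adjusted p = 0.0498). Slc3a2 was named after its values were seen, as were Stc2 and Vldlr, the 2 genes of the list called lower at 6 weeks.

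Of 33 tested further cytosolic chaperones, 1 was called at 2 weeks and 6 at 6 weeks, 2 higher and 4 lower. These calls were 3.03% of the list at 2 weeks and 18.2% at 6 weeks, beside 5.02% and 25.0% of all genes. Scaled to library size, 13 of the 33 were called at 6 weeks, all higher, beside 5494 of all 15054 genes called higher. Cryab (αB-crystallin), the abundant small heat shock protein of cardiomyocytes, went from 1437 ± 174 CPM in controls to 1136 ± 75.9 CPM at 2 weeks and 1091 ± 62.6 CPM at 6 weeks (SD, n = 6), with every irradiated mouse below every control, and was called at both times. At 6 weeks Serpinh1 (Hsp47), the ER chaperone of collagen, rose from 82.5 ± 9.52 to 122 ± 27.0 CPM, and Dnaja4 fell from 120.02 ± 14.1 to 92.9 ± 9.86 CPM. Of 10 further mitochondrial chaperones and proteases all 10 had a negative log2 fold change at both times. At 6 weeks 6 were called lower (60.0%, beside 11.5% of all genes called lower). On the log2(TPM + 1) scale 9 of the 10 were positive at 6 weeks and 3 were called higher. On that scale 7354 of all 15054 genes were called higher, and the median difference of all genes was 0.29. At 2 weeks edgeR and DESeq2 called none of the 10, and 2 had an unadjusted p under 0.05 in edgeR. Among the 10, Dnaja3 fell by 0.35 on the log2 scale, Clpx by 0.39 and Afg3l2 by 0.28 in edgeR at 6 weeks.

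**Figure D5:**
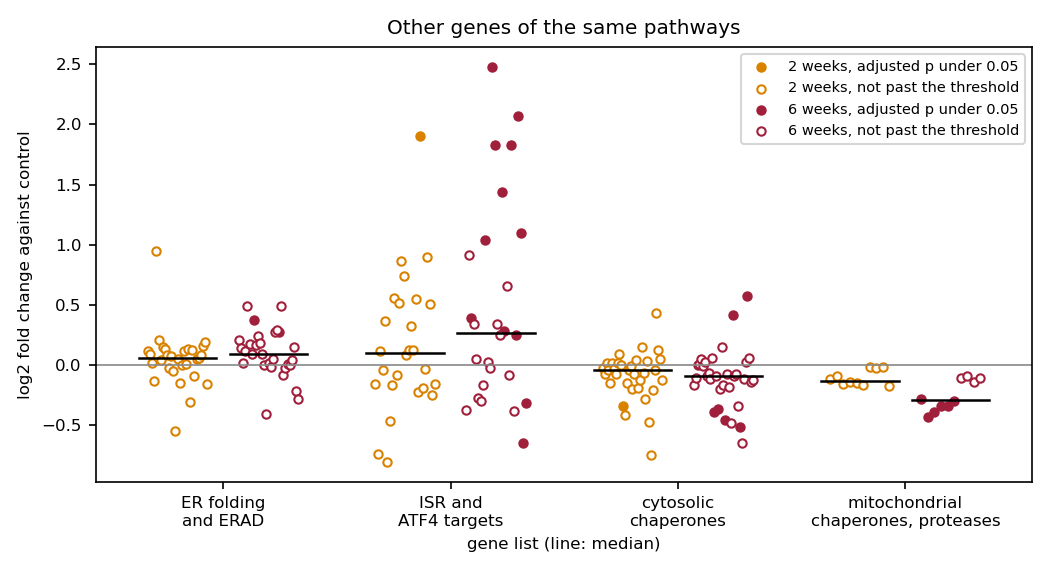
Log2 fold change against control (y axis) of each tested gene of 4 further lists (x axis; 29, 26, 33 and 10 genes) at 2 weeks (orange) and 6 weeks post-IR (red), with filled points at an adjusted p under 0.05 and lines at the median. The ISR and ATF4 list holds the points above 1 at 6 weeks, and the mitochondrial list lies below 0 at both times on this scale. With log2(TPM + 1) the mitochondrial list lies mostly above 0 at 6 weeks, where the median of all genes was 0.29.

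RNA of cell type markers differed between the groups. In bulk RNA, fewer cells of a type and less RNA per cell cannot be told apart. Of 8 macrophage markers 2 were called higher at 2 weeks and all 8 at 6 weeks, and their summed level was 97.7 to 355 TPM in controls, 240.2 to 327 TPM at 2 weeks and 391 to 564 TPM at 6 weeks. Of 8 cardiomyocyte markers 7 were called lower at 6 weeks (median log2 fold change -0.46), but 2 when scaled to library size and 1 on the TPM scale, where another was called higher, with a summed level of 27329 to 38788 TPM in controls and 31104 to 33635 TPM at 6 weeks. B and plasma cell markers summed to at most 8.69 TPM and T cell markers to at most 2.15 TPM in any mouse, and 2 of 6 and 1 of 3 tested were called higher at 6 weeks. Of 8 endothelial markers 4 were called at 2 weeks (1 higher, 3 lower) and 4 at 6 weeks (2 in each direction), and of 7 fibroblast markers 1, Pdgfra, was called lower at both times. None of 6 mural, 4 atrial or 4 adipocyte markers was called at either time by edgeR. Of these, 2 mural markers at 2 weeks had an unadjusted p under 0.05, and DESeq2 called both, 1 in each direction. Of 8 immediate early genes 1 was called at 6 weeks (Junb, higher). The part of these shifts in the stress gene results was not tested.

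Single libraries also stood apart. Control mouse 4 had the lowest summed cardiomyocyte level (27329 TPM) and the highest summed fibroblast (1257 TPM), macrophage (355 TPM) and immediate early (261 TPM) levels of the controls. Atrial markers, which should be scarce in septum, summed to 2499 TPM in it and 2685 TPM in the 2-week mouse 5. The median control had 557 TPM. The 2 sums differed in make-up. Among controls Nppa reached 2178 TPM, and Myl7, Myl4 and Sln at most 170, 61.1 and 107 TPM, so Nppa made up most of the sum in control mouse 4. At 2 weeks the highest values were 1123 TPM for Nppa and 865, 287 and 409 TPM for Myl7, Myl4 and Sln. Without control mouse 4, 5 of the 38 genes were called at 2 weeks and 13 at 6 weeks, beside 862 and 3927 of all genes. Without the 2-week mouse 5, 3 of the 38 were called at 2 weeks, beside 466 of all genes. Mitochondrially encoded genes took 19.8% to 25.0% of counts in controls, 17.8% to 20.6% at 2 weeks and 16.5% to 20.05% at 6 weeks, and TMM factors were 0.844 to 0.991 in controls, 0.962 to 1.03 at 2 weeks and 1.04 to 1.13 at 6 weeks. Scaling to library size alone moved the median of all genes by 0.15 at 2 weeks and 0.24 at 6 weeks on the log2 scale, and log2(TPM + 1) moved it by 0.18 and 0.29. All changes above are relative to TMM unless another scale is named.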

How the data were processed

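RNA from 18 mice was made into libraries and sequenced in pairs by the authors, who estimated transcript levels with Salmon and summed them per gene with tximport. The deposited estimated counts (not whole, not normalized) and the deposited TPM values (scaled to a common total within each mouse and corrected for length, by the authors) were used. Per the study's methods, reads were aligned with STAR to the mouse build GRCm38. All 18 columns matched 1 mouse each by name.

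Estimated counts were rounded, and a gene was tested if 6 or more mice reached 0.23 CPM (15054 of 30072). Counts were scaled by TMM and fitted over all 18 mice with edgeR's quasi-likelihood test (edgeR 4.0.16, R 4.3.3), with Benjamini-Hochberg adjustment over all 15054 genes and a threshold of 0.05. SE is the absolute log2 fold change divided by the square root of F. The procedure was tested on simulated data. Alternatives were DESeq2 1.42.0, limma voom with quality weights (limma 3.58.1), library size scaling, removal of mitochondrially encoded genes, other filters, log2(TPM + 1) and log2(TPM + 0.1) with limma, fits of only the groups compared, the replicate number as a block and each mouse left out. Counts rebuilt from TPM with 1 length per gene were added after the data were seen.

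The 38 genes and the further lists were chosen with earlier results of these data known. Genes called were given in full, up to the 4 of smallest adjusted p per role and comparison, the others in short, and of each further list up to 3 called genes were named. Hspa14, in the cytosolic list, matched no row, and 1 gene of the wider ISR list did not pass the filter. Total counts of 11522987 to 15501019 per mouse limit precision for genes of few counts, such as Asns and Trib3. Replicates are separate mice.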

Additional observations from a re-analysis of the deposited data

Results flagged for a closer look

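In 114 sets of 6 mice (38 genes in 3 groups), the gap between the most extreme mouse and its nearest neighbour was compared with Dixon's 95% critical value of 0.625 times the group's range, which chance passes in about 1 in 20 groups. It was passed in 9. Control mouse 5 accounted for 4 of these, all high and all in heat shock genes: Hspa1a at 39.7 CPM (next mouse 11.7), Hspa1b at 65.7 CPM (next 18.2), Hsph1 at 89.9 CPM (next 49.9) and Dnaja1 at 115 CPM (next 74.7). Control mouse 3 stood apart in 2, with the lowest Dnajc3 (20.2 CPM, next 23.7) and the highest Ppp1r15a (30.5 CPM, next 23.4). Control mouse 4 had the lowest Hyou1 (48.0 CPM, next 58.2). In the 2-week group, mouse 4 had the highest Herpud1 (177 CPM, next 105) and mouse 5 the highest Asns (3.12 CPM, next 2.33).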

How the results depend on the processing

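Of the 38 genes, 7 were called at 2 weeks, 15 at 6 weeks and 0 between the times, and of the 98 tested genes of the further lists 2, 26 and 4. Scaling to library size gave 12, 25 and 4 of the 38 and 11, 46 and 10 of the 98. On log2(TPM + 1) the counts were 18, 27 and 3 and 22, 65 and 9. On log2(TPM + 0.1) they were 19, 27 and 1 and 26 and 65 (2 and 6 weeks). Over all 15054 genes the main fit called 755, 3760 and 802, and library size scaling 1789, 5820 and 1202. On log2(TPM + 1) 2813, 7472 and 1073 of all genes were called, and on log2(TPM + 0.1) 3026, 7463 and 751. With no filter on low counts 4 of the 38 were called at 2 weeks, beside 573 of 21258 genes. With length-scaled counts (chosen after seeing the data) 4 were too, beside 486 of 15119. Fits of only the groups compared called 4 of the 38 and 3 of the 98 at 2 weeks, beside 667 of 14497 genes. Between the times they called 3 of the 38, beside 1009 of 14754. DESeq2 called 3 of the 38 and 10 of the 98 between the times, beside 1164 of all genes. At 2 weeks it called 3 of the 98, beside 1216. Limma voom called 2 of the 38 between the times, beside 1196. Leaving out 1 mouse gave 2 to 6, 11 to 17 and 0 to 2 of the 38. Of the 98 it gave 2 to 3, 20 to 30 and 2 to 7. Over all genes these refits called 453 to 882, 3089 to 3927 and 323 to 995. Of the 22 calls of single genes, the sign turned in 3, all at 6 weeks on the TPM scales. With pseudocounts of 1 and 0.1, Dnajb9 had 0.14 and 0.14, Hspa4l 0.13 and 0.14, and Hspd1 0.045 and 0.046. The median of all genes on these scales was 0.29 and 0.37, so the 3 genes stayed below it. The causes were not tested. Of 264 refits without 1 mouse 200 kept the call, 64 lost it and 0 changed sign, and 12 calls were kept in every such refit.

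Whether the replicate numbers pair the mice was not given. The correlation of same-numbered mice, with group means removed, ranged from -0.0828 to 0.106. Such values cannot show whether these mice were littermates or were processed together. With the replicate number as a block, 6, 15 and 0 of the 38 and 2, 23 and 3 of the 98 were called. Over all 15054 genes this block called 586, 3549 and 542.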
